A study of Homo sapiens with 8 samples.

Results

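The genes described here are 8 targets of YAP and TAZ whose products are secreted, build the extracellular matrix or cross-link it: *CTGF*, *CYR61*, *THBS1*, *COL12A1*, *TGFB2*, *TGM2*, *LAMA3* and *LAMB3*. They were chosen by name, with earlier results of these data known. All 8 were found among the 20028 gene names of the RNA-seq of HCT-116, an epithelial cell line from a human colorectal carcinoma. The cells had been transfected with a control siRNA (siNC, 2 libraries), with siRNAs against *HHEX* (siHHEX, 3 libraries), with siRNAs against *YAP1* and *WWTR1*, the gene of TAZ (siYAP/TAZ, 2 libraries), or with siRNAs against the 4 TEAD genes at once (siTEAD1/2/3/4, 1 library). The study set these knockdowns side by side to find genes that HHEX shares with YAP, TAZ and the TEADs. The siHHEX and siYAP/TAZ libraries carry the numbers that the methods give to different siRNAs, so that different siRNAs stand behind the replicates of 1 knockdown. Every library came from this single line, and nothing in the labels says that the libraries of a group came from separate cultures. The p-values therefore measure the spread between these libraries, which in siNC may be technical. In siHHEX and siYAP/TAZ that spread also holds differences between siRNAs. Each siRNA or siRNA pair there stands behind 1 library, so its own effect and the noise of a library cannot be told apart. Levels are in FPKM, a count of fragments scaled by transcript length and by the size of the library, so that genes can be compared with each other. Changes were taken as differences of log2(FPKM + 1) from siNC and tested with limma over 10677 genes, those that reached 1 FPKM in 2 or more libraries, with p-values adjusted over all of them. This scale understates the change of genes near or below 1 FPKM, so the ratio of mean FPKM is given beside it where the 2 scales part. Of the 8 genes, 7 were tested and *TGFB2* was too low. *CTGF* reached 1 FPKM in the 2 siNC libraries alone, so it entered the test only through the group where it is high. The number of reads behind an FPKM value is unknown, and between 4996 (siYAP/TAZ 2) and 5988 (siHHEX 2) gene rows were listed at 0 in a library.

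YAP and TAZ are coactivators without a DNA-binding domain of their own. They enter the nucleus when the Hippo kinases are inactive, as on stiff matrix or in spread cells, and bind DNA through the TEAD factors, which recognise the word GGAATG. HHEX is a homeobox factor that the study examined as a partner of YAP and the TEADs. Many targets of the complex encode proteins outside the cell. *CTGF* and *CYR61* encode CCN proteins, and *THBS1* encodes thrombospondin-1. These are matricellular proteins, which are placed in the matrix but signal to cells through integrins rather than bear load. *COL12A1* encodes a collagen that sits on the surface of collagen fibrils (a FACIT collagen). *LAMA3* and *LAMB3* encode the alpha and beta chains of the laminin that anchors epithelia to their basement membrane. *TGFB2* encodes a latent TGF-beta ligand, and *TGM2* a transglutaminase that cross-links matrix proteins.

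The start regions of these genes are shown because they carry, or lack, the word that TEAD factors read. RefSeq windows on GRCh38.p14, from 250 bases before to 50 bases after a transcription start, were at hand for 6 of the 8 genes. *CYR61* and *TGM2* were not matched. GGAATG, searched on both strands, was present in the windows of 4 genes, which are printed 5′ to 3′ in the direction of the gene, with the word in capitals (CATTCC where it lies on the opposite strand):
CTGF, chr6:131951323-131951622, minus strand: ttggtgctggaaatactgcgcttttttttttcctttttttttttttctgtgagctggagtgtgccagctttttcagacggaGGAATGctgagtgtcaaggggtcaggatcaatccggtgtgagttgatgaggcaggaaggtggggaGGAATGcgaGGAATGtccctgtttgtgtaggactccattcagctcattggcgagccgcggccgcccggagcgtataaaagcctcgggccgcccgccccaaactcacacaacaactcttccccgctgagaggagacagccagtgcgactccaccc
THBS1, chr15:39580829-39581128, plus strand: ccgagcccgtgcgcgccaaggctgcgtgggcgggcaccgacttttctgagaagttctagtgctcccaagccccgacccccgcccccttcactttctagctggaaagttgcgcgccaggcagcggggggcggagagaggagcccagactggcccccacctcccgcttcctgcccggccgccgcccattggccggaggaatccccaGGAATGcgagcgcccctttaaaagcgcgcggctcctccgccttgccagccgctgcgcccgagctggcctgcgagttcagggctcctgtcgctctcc
COL12A1, chr6:75206004-75206303, minus strand: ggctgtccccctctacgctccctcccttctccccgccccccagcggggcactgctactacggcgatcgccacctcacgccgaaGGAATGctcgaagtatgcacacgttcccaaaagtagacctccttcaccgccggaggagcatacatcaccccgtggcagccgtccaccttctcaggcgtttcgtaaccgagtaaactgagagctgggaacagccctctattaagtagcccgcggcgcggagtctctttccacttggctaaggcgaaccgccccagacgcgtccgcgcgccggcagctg
TGFB2, chr1:218345086-218345385, plus strand: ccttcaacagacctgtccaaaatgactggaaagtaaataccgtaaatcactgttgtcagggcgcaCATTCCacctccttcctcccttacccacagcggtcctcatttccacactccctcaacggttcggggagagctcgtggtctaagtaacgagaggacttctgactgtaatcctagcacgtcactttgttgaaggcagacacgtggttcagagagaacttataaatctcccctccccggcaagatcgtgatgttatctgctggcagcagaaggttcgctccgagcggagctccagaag

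The *CTGF* window held 3 copies, with first bases at -169, -104 and -95 from the start. *THBS1* held 1 copy at -46, *COL12A1* held 1 at -167, and the copy of *TGFB2*, on the opposite strand, began at -185. At least 1 copy stood in 14.0% of the 35116 RefSeq windows of this length, and 0.128% held 3 or more. None of the 3 windows of *LAMB3* and not the window of *LAMA3* held the word. Those 2 genes instead held TGANTCA, the word read by AP-1 factors, with copies at -125 and -69 in *LAMA3* and at -67 in 1 window of *LAMB3*. TGANTCA, also searched on both strands, was found in 7.71% of all windows. The *LAMA3* window, at chr18:23872770-23873069, begins inside the gene, since *LAMA3* has a long form that starts further upstream. Such matches describe the letters of a short window only. They say nothing of enhancers, where much TEAD binding lies, and binding was not analysed here.

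The genes aimed at were checked first. *HHEX* was at 8.60 and 9.06 FPKM in siNC and at 3.25, 3.54 and 1.85 FPKM in siHHEX 1, 2 and 3. *YAP1* was at 20.2 and 19.7 FPKM in siNC and at 6.90 and 8.39 FPKM in siYAP/TAZ, and *WWTR1* was at 6.80 and 6.72 FPKM against 2.64 and 2.58 FPKM. The groups did not overlap for these 3 genes, although the fall of *YAP1* in siYAP/TAZ had an adjusted p of 0.0681. In siTEAD1/2/3/4, *TEAD4* and *TEAD1* were at 5.56 and 9.02 FPKM against siNC means of 20.8 and 18.6 FPKM, and *TEAD2* was at 2.73 FPKM against 3.78 FPKM. *TEAD3* was at 9.08 FPKM there, above both siNC values, so that this library lacks a visible fall of that target. The siHHEX libraries were not alike in *YAP1*, which was at 5.77, 17.4 and 6.93 FPKM in siHHEX 1, 2 and 3, and *TEAD1* was at 6.99, 10.2 and 5.30 FPKM there. *TEAD4* was lower in siYAP/TAZ, at 12.5 and 13.6 FPKM against 20.3 and 21.3 FPKM in siNC (log2 fold change -0.63, adjusted p = 0.025).

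Of the 7 tested matrix genes, the same 5 were lower in siHHEX and in siYAP/TAZ at an adjusted p under 0.05: *CTGF*, *CYR61*, *THBS1*, *COL12A1* and *LAMB3*. The other two, *TGM2* and *LAMA3*, passed in neither comparison, and 0 members were higher in either, also at an unadjusted p under 0.05 from limma. Among all tested genes, 16.9% were lower in siHHEX by this rule and 2.13% in siYAP/TAZ. These shares depend on the setting. With each library corrected for GC content and length, 338 of 10608 genes were lower in siHHEX and 652 in siYAP/TAZ. Without the correction they were 1806 and 227 of 10677. The members lower stayed at 5 in each. Without the filter on low values 4 members passed in siHHEX and 2 in siYAP/TAZ, *CTGF* among them in each. Fewer also passed when a siNC library was left out, as given in the section on the processing. With a fold of more than 2 on the log2(FPKM + 1) scale and an unadjusted p under 0.05, 4 of the 7 were lower in each knockdown, all but *LAMB3* of those 5, against 0.927% of all tested genes in siHHEX and 0.431% in siYAP/TAZ. *LAMB3* lay close to this limit, at 2.002-fold below siNC in siYAP/TAZ as a ratio of means, and 5 members passed there with a pseudocount of 0.1, with median scaling or with GC content and length corrected for. In siHHEX 5 passed with the replicate block and 3 with the block and that correction together. The 7 genes had a median log2 fold change of -1.09 in siHHEX and -1.06 in siYAP/TAZ, where all tested genes had medians of -0.01 and 0.08. In all 6 knockdown libraries, the siTEAD1/2/3/4 library among them, these 5 genes were below both siNC libraries, a pattern found in 10.3% of tested genes. The comparisons share the siNC libraries and are not independent. When each library was scaled to the median of all genes, the same number of members, 5, passed in each knockdown. That scaling moved the median log2 fold change of all tested genes in siYAP/TAZ from 0.08 to -0.02 and the split of lower and higher calls over all genes from 227 and 657 to 357 and 356, and in siHHEX from 1806 and 1712 to 1460 and 2197. The measure is RNA in bulk cultures, in which fewer cells with a transcript and less of it per cell cannot be told apart. RNA of the 8 genes summed to 42.1 and 46.0 FPKM in siNC, to between 17.9 and 23.1 FPKM in siHHEX, to 20.03 and 17.2 FPKM in siYAP/TAZ and to 24.0 FPKM in siTEAD1/2/3/4.

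**Figure D1:**
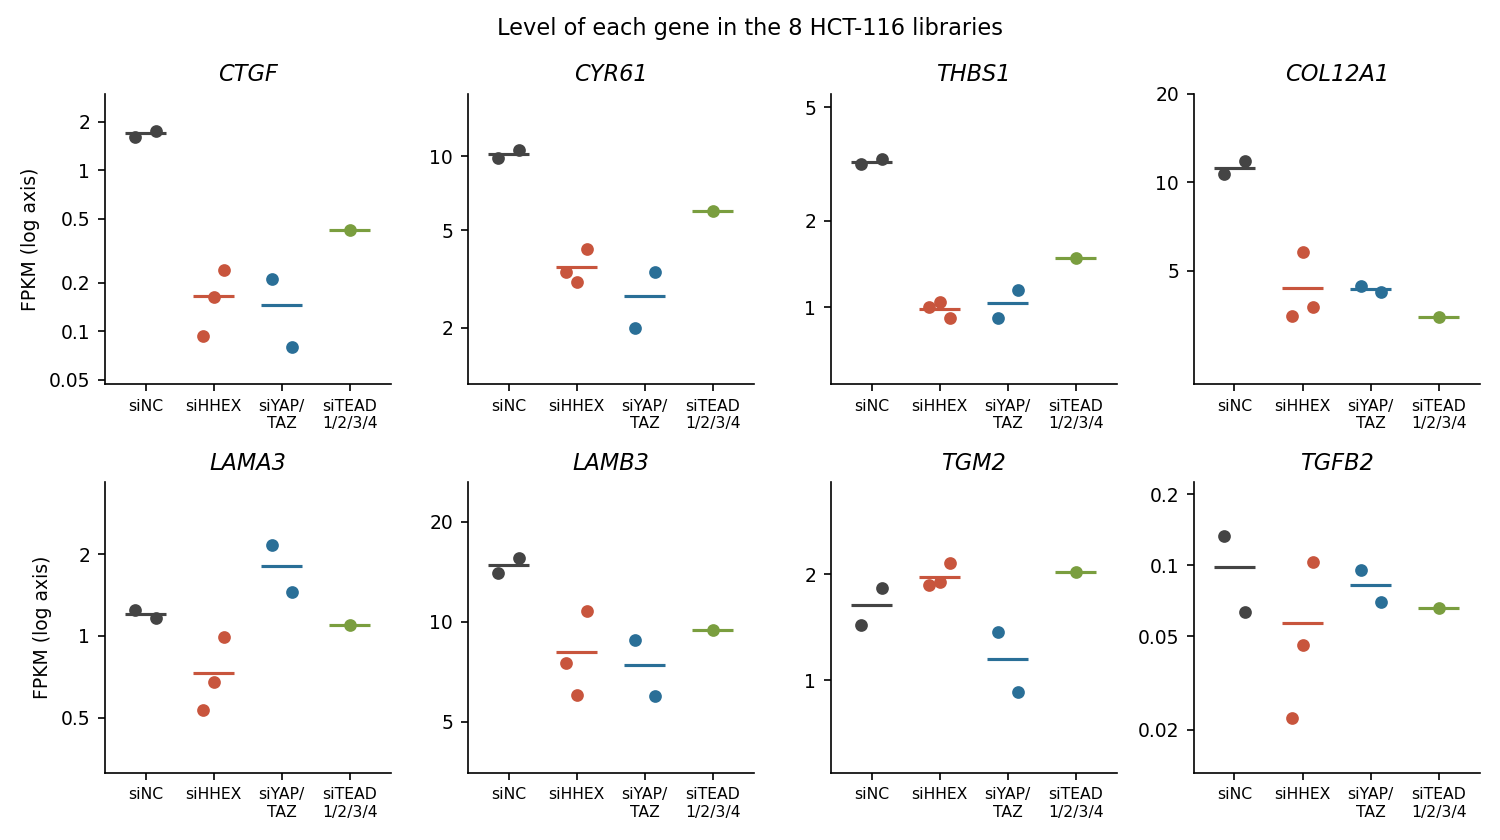
Level of each of the 8 genes in the 8 libraries, in FPKM on a log axis that differs between panels; points are libraries and the line is the mean of a group (n = 2, 3, 2 and 1). For *CTGF*, *CYR61*, *THBS1*, *COL12A1* and *LAMB3* every knockdown library lies below both siNC libraries, while *LAMA3* and *TGM2* lie apart between siHHEX and siYAP/TAZ and *TGFB2* is at most 0.133 FPKM.

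In siNC the order of the levels was *LAMB3* (14.8 ± 1.04 FPKM, SD, n = 2), *COL12A1* (11.2 ± 0.812), *CYR61* (10.2 ± 0.531), *THBS1* (3.22 ± 0.0836), *CTGF* (1.69 ± 0.102), *TGM2* (1.63 ± 0.281), *LAMA3* (1.21 ± 0.0592) and *TGFB2* (0.0979 ± 0.0493). *COL12A1* and *CYR61* did not differ beyond their spread, nor did *CTGF* and *TGM2*, whose values overlapped. In siHHEX, *LAMB3* stayed the highest of the 8 at 8.11 ± 2.44 FPKM (SD, n = 3), *COL12A1* and *CYR61* followed at 4.36 ± 1.26 and 3.54 ± 0.575 FPKM with overlapping values, and *TGM2* came next at 1.97 ± 0.156 FPKM, above *THBS1*. *CTGF* dropped from the fifth place to the seventh in siHHEX and siYAP/TAZ, ahead of *TGFB2* alone.

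*CTGF* (named *CCN2* in the annotation; chromosome 6, 131948176 to 131951372 on GRCh38, 5 exons) encodes a matricellular protein that binds growth factors and integrins and is among the most used readouts of YAP. Its level was 1.62 and 1.76 FPKM in siNC, 0.0932, 0.162 and 0.241 FPKM in siHHEX 1, 2 and 3, 0.209 and 0.0794 FPKM in siYAP/TAZ, and 0.424 FPKM in siTEAD1/2/3/4. Every knockdown library thus lay far below both controls, siHHEX and siYAP/TAZ overlapped with each other, and siTEAD1/2/3/4 was the highest of the 6. The siHHEX libraries had 5.52%, 9.59% and 14.2% of the siNC mean, and the ratio of mean FPKM was 10.2-fold below siNC in siHHEX and 11.7-fold below in siYAP/TAZ. On the log2(FPKM + 1) scale the same falls were -1.21 (standard error 0.124, adjusted p = 0.00235) and -1.24 (standard error 0.136, adjusted p = 0.00342). With a pseudocount of 0.1 they were -2.79 and -2.92. The knockdown values lie where FPKM is imprecise. Among the 1114 genes with a siNC mean from 0.05 to 0.2 FPKM, the median fold between the siNC libraries was 1.5 and the 95th percentile 5.62.

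*CYR61* (*CCN1* in the annotation; chromosome 1, 85580761 to 85584589, 5 exons) encodes another CCN protein, made early in the response to growth factors and adhesion. It was at 9.83 and 10.6 FPKM in siNC, at 3.38, 3.07 and 4.18 FPKM in siHHEX, at 2.00 and 3.37 FPKM in siYAP/TAZ and at 5.99 FPKM in siTEAD1/2/3/4. Here too no knockdown library reached a control, and siTEAD1/2/3/4 stood between the controls and the rest. The ratio of means was 2.88-fold below siNC in siHHEX and 3.80-fold below in siYAP/TAZ, with log2 fold changes of -1.31 (standard error 0.179, adjusted p = 0.00387) and -1.63 (standard error 0.196, adjusted p = 0.00477). The adjusted p in siYAP/TAZ was 0.0574 without the filter on low values.

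The CCN family has 6 members, of which *NOV* (*CCN3*) was the only other one tested. In siHHEX *NOV* was lower, at 1.39, 2.13 and 1.7 FPKM against 2.88 and 2.71 FPKM in siNC (log2 fold change -0.48, standard error 0.151, adjusted p = 0.0386), a call lost with the replicate block and without the filter. In siYAP/TAZ it was instead above both controls, at 4.91 and 3.96 FPKM, a difference that did not pass (log2 fold change 0.51, adjusted p = 0.0843). The difference of *NOV* between siHHEX and siYAP/TAZ was -0.99 (adjusted p = 0.00426). *NOV* was left out of the correction for GC content and length. *WISP1*, *WISP2* and *WISP3* were at or near 0 in every library, the highest value being 0.0585 FPKM for *WISP1*. Of 12 other matricellular genes, among them *SPARC*, *TNC*, *SPP1* and *POSTN*, *FBLN1* alone was tested. Fibulin-1, its product, is a matrix glycoprotein that binds fibronectin and laminin, and its RNA was higher in siHHEX (log2 fold change 0.35, adjusted p = 0.0461). That call was lost with the replicate block, without the filter, and with each library corrected for GC content and length, when the value was 0.10 (adjusted p = 0.597).

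*THBS1* (chromosome 15, 39581079 to 39599466, 22 exons) encodes thrombospondin-1, which activates latent TGF-beta and binds CD36, CD47 and integrins. It was at 3.16 and 3.28 FPKM in siNC, at 1.0, 1.04 and 0.918 FPKM in siHHEX, at 0.913 and 1.15 FPKM in siYAP/TAZ and at 1.49 FPKM in siTEAD1/2/3/4. The siHHEX and siYAP/TAZ libraries formed a narrow band well under the controls, and siTEAD1/2/3/4 was again the nearest to them. The ratio of means was 3.26-fold below siNC in siHHEX (log2 fold change -1.09, standard error 0.120, adjusted p = 0.00338) and 3.12-fold below in siYAP/TAZ (log2 fold change -1.06, adjusted p = 0.00546, standard error 0.132). The other 4 thrombospondins, *THBS2*, *THBS3*, *THBS4* and *COMP*, were at most 0.597 FPKM in any library and were not tested. The 5 thrombospondins together summed to 3.36 and 3.48 FPKM in siNC. Their sum was 1.31, 1.44 and 1.35 FPKM in siHHEX, 1.35 and 2.04 FPKM in siYAP/TAZ and 1.93 FPKM in siTEAD1/2/3/4. *THBS3* was highest in siYAP/TAZ 2.

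*COL12A1* (chromosome 6, 75084326 to 75206267, 66 exons) encodes the alpha chain of collagen XII, which bridges collagen fibrils and other matrix. It was at 10.6 and 11.8 FPKM in siNC, at 3.51, 5.80 and 3.76 FPKM in siHHEX, at 4.45 and 4.22 FPKM in siYAP/TAZ and at 3.49 FPKM in siTEAD1/2/3/4. Among the 7 tested genes it was the only one whose lowest library was siTEAD1/2/3/4, though siHHEX 1 was nearly as low, and siHHEX 2 had the highest value of the knockdowns. On the log2 scale the change was -1.21 in siHHEX (adjusted p = 0.0047, standard error 0.180) and -1.19 in siYAP/TAZ (adjusted p = 0.0128, standard error 0.197), ratios of means 2.57-fold and 2.59-fold below siNC. Without the filter, the adjusted p in siYAP/TAZ was 0.088.

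Of the other collagens that these epithelial cells express, none passed as lower beside *COL12A1*. Among 10 FACIT genes, *COL9A3* was the other one tested, and it was higher in siYAP/TAZ, at 5.0 and 4.95 FPKM against 2.51 and 2.03 FPKM (log2 fold change 0.87, adjusted p = 0.0301). Of 30 further collagen genes 7 were tested. By limma 0 of the 7 were lower in either knockdown, also at an unadjusted p under 0.05, while 2 were higher in siHHEX and 3 in siYAP/TAZ. Their median log2 fold changes were 0.10 in siHHEX, which became -0.08 after correction of each library for GC content and length, and 0.47 in siYAP/TAZ. *COL17A1*, a transmembrane collagen of the hemidesmosome, was at 0.638 and 0.646 FPKM in siNC, at 1.51, 1.17 and 2.18 FPKM in siHHEX and at 3.52 and 2.53 FPKM in siYAP/TAZ, with log2 fold changes of 0.66 (adjusted p = 0.0245) and 1.28 (adjusted p = 0.00996). *COL6A1*, of the beaded microfibrils, was higher by 0.45 and 0.70 on the log2 scale (adjusted p = 0.0453 and 0.0363). *COL4A5*, of basement membranes, was higher in siYAP/TAZ by 0.75 (adjusted p = 0.0172) but not in siHHEX, where its log2 fold change was -0.10 (adjusted p = 0.561). Both calls in siHHEX were lost under that correction, at 0.49 for *COL17A1* (adjusted p = 0.0975) and 0.14 for *COL6A1* (adjusted p = 0.531), while the 3 in siYAP/TAZ held. With the replicate block 0 of the 7 were higher in siHHEX, and with median scaling 2 were higher in siYAP/TAZ. *COL17A1* and *COL1A1* were below 1 FPKM in both siNC libraries and entered the test only through knockdown libraries. The split of lower and higher genes is therefore in part fixed by the filter. Without the filter on low values 0 of the 30 genes passed in either knockdown. In siYAP/TAZ 0 of the 10 FACIT genes then passed, *COL9A3* included. Among all tested genes, 16% were higher in siHHEX and 6.15% in siYAP/TAZ.

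**Figure D2:**
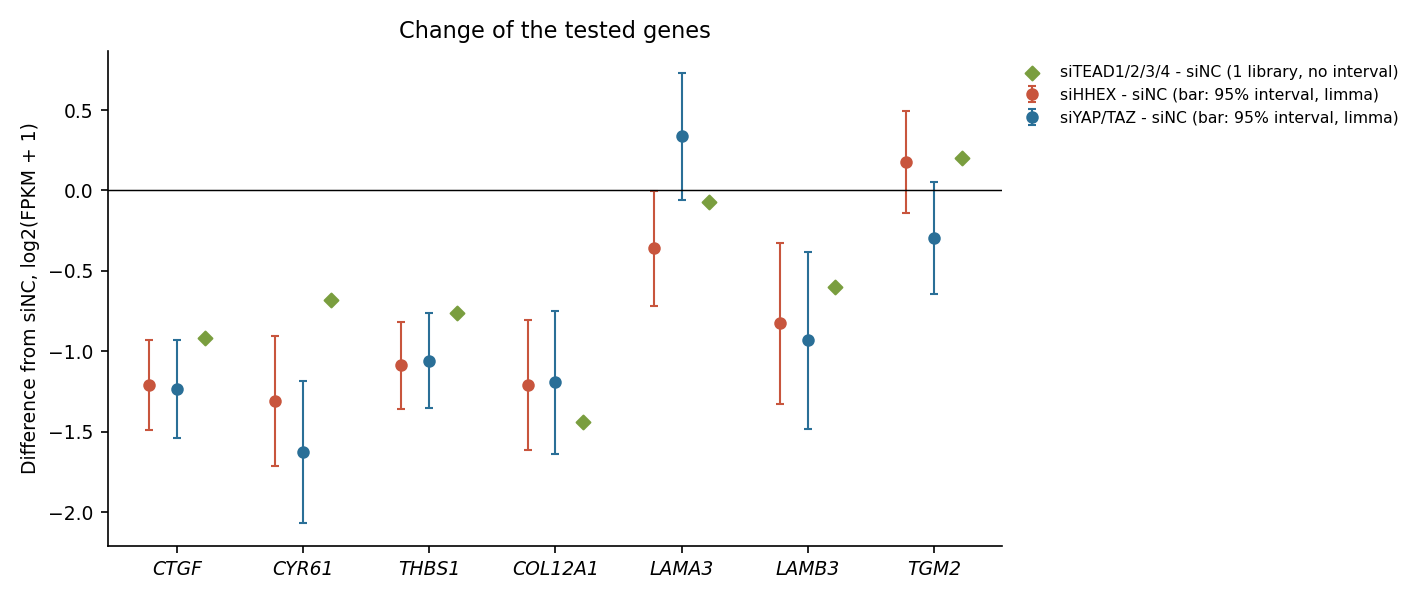
Difference of each tested gene from siNC in log2(FPKM + 1), for siHHEX and siYAP/TAZ with 95% intervals from limma and for the single siTEAD1/2/3/4 library without one. The intervals of *CTGF*, *CYR61*, *THBS1*, *COL12A1* and *LAMB3* lie below 0 in siHHEX and siYAP/TAZ, and *LAMA3* and *TGM2* have opposite signs in these 2 knockdowns.

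*LAMB3* (chromosome 1, 209614870 to 209652425, 23 exons) encodes the beta chain of the epithelial anchoring laminin and was lower in both knockdowns. It was at 14.1 and 15.5 FPKM in siNC, at 7.5, 6.03 and 10.8 FPKM in siHHEX, at 8.82 and 5.96 FPKM in siYAP/TAZ and at 9.43 FPKM in siTEAD1/2/3/4. The knockdown groups overlapped with each other but not with the controls, and siHHEX 3 was the closest to them. The siHHEX log2 fold change was -0.83 (adjusted p = 0.023, standard error 0.223) and that of siYAP/TAZ -0.93 (adjusted p = 0.0482, standard error 0.244). The calls rested on narrow margins. In siHHEX the adjusted p was 0.149 without the filter, 0.124 and 0.137 without siNC 1 and siNC 2, and 0.0652 without siHHEX 1. In siYAP/TAZ it was 0.1996 without the filter, 0.217 and 0.258 without siNC 1 and siNC 2, 0.272 without siYAP/TAZ 2 and 0.0516 with a pseudocount of 0.1.

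*LAMA3* (chromosome 18, 23689453 to 23956222, 75 exons in its long form), the alpha chain of the same laminin, went its own way. It was at 1.25 and 1.17 FPKM in siNC, at 0.532, 0.675 and 0.987 FPKM in siHHEX, at 2.17 and 1.45 FPKM in siYAP/TAZ and at 1.10 FPKM in siTEAD1/2/3/4. All siHHEX libraries were below both controls and both siYAP/TAZ libraries above them. Neither difference from siNC passed the test, at -0.36 on the log2 scale in siHHEX (adjusted p = 0.105, standard error 0.159) and 0.34 in siYAP/TAZ (adjusted p = 0.247, standard error 0.175). Per unit length, its level was below that of *LAMB3* in every library.

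The laminin genes as a family were not moved in 1 direction. Of 11 chains 7 were tested. In siHHEX 3 were lower and 0 higher by limma (4 and 0 at an unadjusted p under 0.05), and in siYAP/TAZ 1 was lower and 2 were higher, with median log2 fold changes of -0.36 and 0.15 (-0.02 for siYAP/TAZ with GC content and length corrected for). Among all tested genes 16.9% were lower and 16% higher in siHHEX, and 2.13% and 6.15% in siYAP/TAZ. Under that correction 2 chains were lower in siYAP/TAZ, *LAMA5* being added (-0.53, adjusted p = 0.0187). Besides *LAMB3*, the chains lower in siHHEX were *LAMC1*, at 6.98, 8.49 and 8.40 FPKM against 13.4 and 13 FPKM (log2 fold change -0.67, adjusted p = 0.00937), and *LAMA5*, at 7.53, 7.82 and 9.07 FPKM against 12.9 and 12.7 FPKM (log2 fold change -0.60, adjusted p = 0.0108). *LAMA5* and *LAMC1* are chains of a common laminin of adult basement membranes, which *LAMB1* completes, and *LAMB1* did not pass in siHHEX (0.14, adjusted p = 0.416). The chains higher in siYAP/TAZ were *LAMB1*, at 3.82 and 4.73 FPKM against 1.92 and 1.77 FPKM (log2 fold change 0.88, adjusted p = 0.0135), and *LAMB2*, at 7.75 and 8.29 FPKM against 3.95 and 3.88 FPKM (log2 fold change 0.88, adjusted p = 0.0253). Between siHHEX and siYAP/TAZ the log2 difference was -0.74 for *LAMB1* (adjusted p = 0.00584) and -0.52 for *LAMB2* (adjusted p = 0.0376). The beta chains were therefore split, *LAMB3* being lower and *LAMB1* and *LAMB2* higher in the same siYAP/TAZ libraries. Without the filter on low values 0 of the 11 chains passed in siYAP/TAZ, so that the calls of these beta chains were lost. *LAMA1*, *LAMA2*, *LAMA4* and *LAMB4* were too low to be tested.

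**Figure D3:**
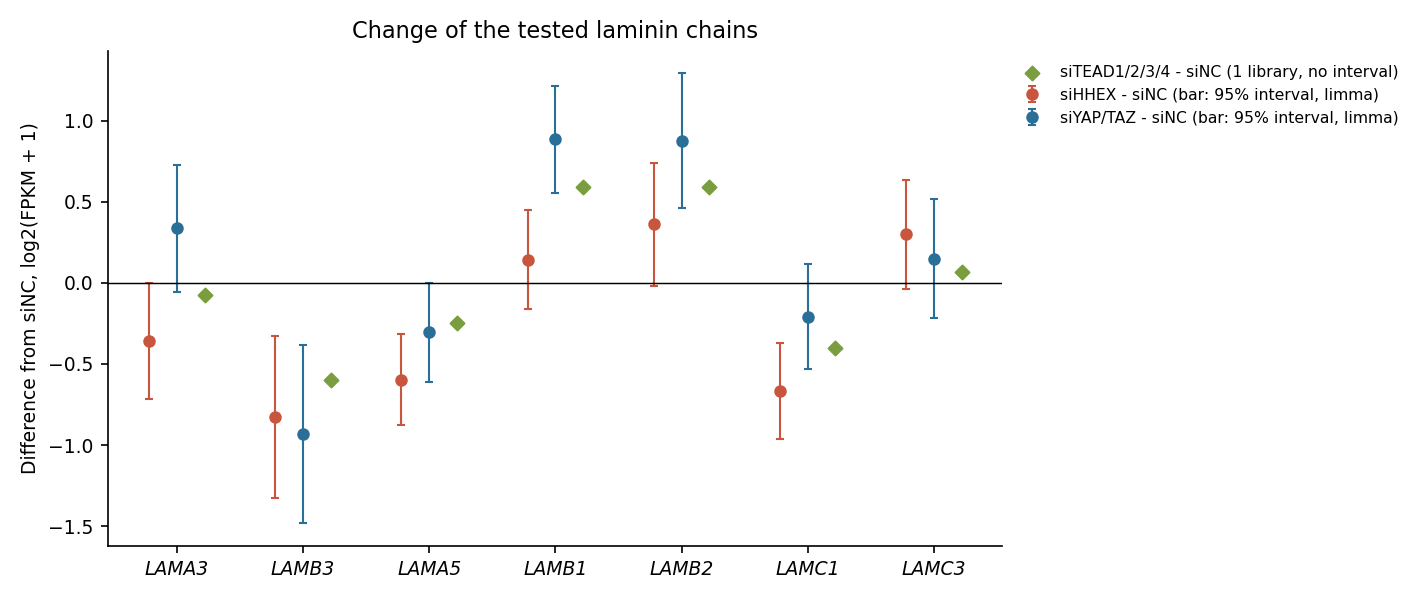
Difference of the 7 tested laminin chains from siNC in log2(FPKM + 1), with 95% intervals from limma for siHHEX and siYAP/TAZ and the single siTEAD1/2/3/4 library as a diamond. *LAMB3* lies below 0 in siHHEX and siYAP/TAZ, whereas *LAMB1* and *LAMB2* are higher in siYAP/TAZ with log2 fold changes of 0.88 each.

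*TGM2* (chromosome 20, 38127385 to 38166578, 13 exons) encodes tissue transglutaminase, which joins glutamine and lysine side chains of matrix proteins and also acts as an integrin-associated adhesion protein. It was at 1.44 and 1.83 FPKM in siNC, at 1.86, 1.90 and 2.15 FPKM in siHHEX, at 1.37 and 0.930 FPKM in siYAP/TAZ and at 2.02 FPKM in siTEAD1/2/3/4. The siHHEX and siTEAD1/2/3/4 values were above both controls and the siYAP/TAZ values below, but the differences did not pass (log2 fold change 0.18 in siHHEX, adjusted p = 0.342, and -0.30 in siYAP/TAZ, adjusted p = 0.247). The other 8 transglutaminases were not tested.

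*TGFB2* (chromosome 1, 218345336 to 218444619, 7 exons) was at 0.133 and 0.0631 FPKM in siNC, at 0.0224, 0.0460 and 0.103 FPKM in siHHEX, at 0.0955 and 0.0701 FPKM in siYAP/TAZ and at 0.0661 FPKM in siTEAD1/2/3/4. The controls alone spanned most of this range, and no group was set apart from them. At these values a difference was not detectable. *TGFB1*, at 9.21 and 9.65 FPKM in siNC, was the most abundant of the 3 TGF-beta ligands (*TGFB3* was at 0.404 and 0.334 FPKM), and it did not pass in siHHEX (log2 fold change 0.18, adjusted p = 0.346) or in siYAP/TAZ (0.18, adjusted p = 0.505). Genes downstream of the ligands were looked up next. Of 17 tested genes of TGF-beta latency, reception and signalling, 9 were lower in siHHEX and 2 in siYAP/TAZ by limma, and 0 were higher in either (0 and 1 at an unadjusted p under 0.05), where 16.9% and 2.13% of all tested genes were lower. Their median log2 fold changes were -0.51 and -0.03, and -0.18 in each knockdown with GC content and length corrected for. With the replicate block 1 was lower in siYAP/TAZ, and with median scaling 4 were. *SMAD3*, the transducer that also binds YAP and TAZ, was lower in siHHEX (log2 fold change -1.0, adjusted p = 0.00387) and in siYAP/TAZ (-0.87, adjusted p = 0.0137), at 5.22, 5.96 and 5.30 FPKM and at 6.83 and 5.45 FPKM against 12.3 and 11.7 FPKM. *SMURF2*, a ubiquitin ligase that limits the pathway, and *SMAD7*, its feedback inhibitor, were lower in siHHEX by -1.21 (adjusted p = 0.00384) and -0.83 (adjusted p = 0.00834). Neither was among the 2 genes lower in siYAP/TAZ. The activin receptor gene *ACVR1B* was the second gene lower in siYAP/TAZ (-0.57, adjusted p = 0.0427). With GC content and length corrected for, 4 of the 17 were lower in siHHEX and 4 in siYAP/TAZ, *SMAD3*, *SMURF2* and *SMAD7* among them in each. In siYAP/TAZ *SMURF2* was then at -0.69 (adjusted p = 0.0177) and *SMAD7* at -0.70 (adjusted p = 0.0288). Under that correction neither gene differed between the knockdowns (adjusted p = 0.512 for *SMURF2* and 0.145 for *SMAD7*).

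siHHEX and siYAP/TAZ were then compared with each other, to see whether the matrix genes answered alike. For *CTGF* the difference, siHHEX minus siYAP/TAZ, was 0.03 with a 95% interval from -0.25 to 0.31. *THBS1* gave -0.03 (-0.30 to 0.24) and *COL12A1* -0.02 (-0.42 to 0.39). For *LAMB3* it was 0.11 (-0.39 to 0.61), and for *CYR61* 0.32 (-0.08 to 0.72, adjusted p = 0.176). Those 5 differences did not pass the test, and the intervals leave room for differences of up to 0.72 on the log2 scale. *LAMA3* and *TGM2* did pass, in opposite directions: *LAMA3* was lower in siHHEX than in siYAP/TAZ by -0.70 (95% interval -1.05 to -0.34, adjusted p = 0.0113), and *TGM2* was higher by 0.47 (0.16 to 0.79, adjusted p = 0.0273). The values did not overlap for either gene, a pattern whose share among all tested genes was not counted. Among all tested genes 25.9% were lower and 13.5% higher in this comparison. That split turned with the setting, from 2763 lower and 1437 higher genes to 1514 and 2504 with median scaling and to 358 and 587 with GC content and length corrected for. After the GC and length correction neither difference passed, at -0.52 for *LAMA3* (adjusted p = 0.064) and 0.45 for *TGM2* (adjusted p = 0.0565), and with the replicate number as a block *TGM2* had an adjusted p of 0.0817.

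The siTEAD1/2/3/4 library has no replicate, and its values are given without a test. *COL12A1* was the only member past a fold of 2 on the log2(FPKM + 1) scale, at -1.44, against 0.478% of all tested genes that were lower by this much. *CTGF*, *THBS1*, *CYR61* and *LAMB3* followed at -0.92, -0.76, -0.68 and -0.60, *LAMA3* was at -0.07 and *TGM2* at 0.20. As ratios of FPKM, *CTGF* was 3.99-fold, *COL12A1* 3.21-fold, *THBS1* 2.17-fold, *CYR61* 1.7-fold and *LAMB3* 1.57-fold below the siNC mean. Of the 7 genes 6 were below both controls, as were 35.1% of all tested genes. In siHHEX 6 of the 7 were below both controls in every library (33.8% of all tested genes), and in siYAP/TAZ likewise 6 (24.8%), with *TGM2* in the place of *LAMA3*.

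Target genes of YAP and TAZ outside the matrix were set beside these members. Of 14 tested, 11 were lower in siHHEX and 7 in siYAP/TAZ by limma, and 0 were higher, also at an unadjusted p under 0.05, beside 16.9% and 2.13% lower among all tested genes. The median log2 fold changes were -0.83 and -0.62. With GC content and length corrected for, the counts were 9 in siHHEX and 10 in siYAP/TAZ. *F3*, the gene of tissue factor, *AMOTL2*, a junction protein that holds YAP in the cytoplasm, and *AXL*, a receptor kinase, had the largest falls in siHHEX (-1.95, -1.73 and -1.51). In siYAP/TAZ their log2 fold changes were -2.75, -2.38 and -1.54. *F3* and *AMOTL2* were lower in siYAP/TAZ than in siHHEX, a difference that passed for both (0.80, adjusted p = 0.0041, and 0.65, adjusted p = 0.00721). This list was drawn up with earlier results of these data known, and its counts are a description.

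Receptors for the matrix proteins were also looked up. Of 14 tested integrins and other receptors, 6 were lower in siHHEX and 0 in siYAP/TAZ by limma, beside 16.9% and 2.13% of all tested genes. At an unadjusted p under 0.05 from limma the counts were 7 and 3. The median log2 fold changes were -0.37 and -0.16, and -0.19 and -0.26 with GC content and length corrected for. *ITGA2*, a collagen and laminin receptor subunit, fell from 8.63 and 9.66 FPKM to 2.63, 3.6 and 3.95 FPKM in siHHEX (log2 fold change -1.22, adjusted p = 0.00384). *ITGA6*, which binds the laminin of *LAMA3* and *LAMB3*, fell from 24.3 and 23.9 FPKM to 8.04, 10.4 and 11.4 FPKM (-1.21, adjusted p = 0.00696). *ITGB1* and *ITGB5*, beta subunits that pair with many alpha chains, were lower in siHHEX by -0.71 (adjusted p = 0.0145) and -0.79 (adjusted p = 0.0191), and in siYAP/TAZ their log2 fold changes were -0.21 (adjusted p = 0.482) and -0.78 (adjusted p = 0.0603). The log2 difference between siHHEX and siYAP/TAZ was -0.84 for *ITGA2* (adjusted p = 0.00606) and -0.50 for *ITGB1* (adjusted p = 0.0394). With GC content and length corrected for together, 2 of the 14 were lower in siHHEX, *ITGA2* (-0.78, adjusted p = 0.0314) and *ITGB5* (-0.93, adjusted p = 0.0265), while *ITGA6* (-0.85, adjusted p = 0.0525) and *ITGB1* (-0.29, adjusted p = 0.348) did not pass. In siYAP/TAZ 1 was then lower, *ITGB5* (-0.88, adjusted p = 0.0297), and 1 was lower there too with median scaling or the replicate block. Both differences between the knockdowns were lost under the correction, at -0.26 for *ITGA2* (adjusted p = 0.335) and 0.00026 for *ITGB1* (adjusted p = 0.999).

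**Figure D4:**
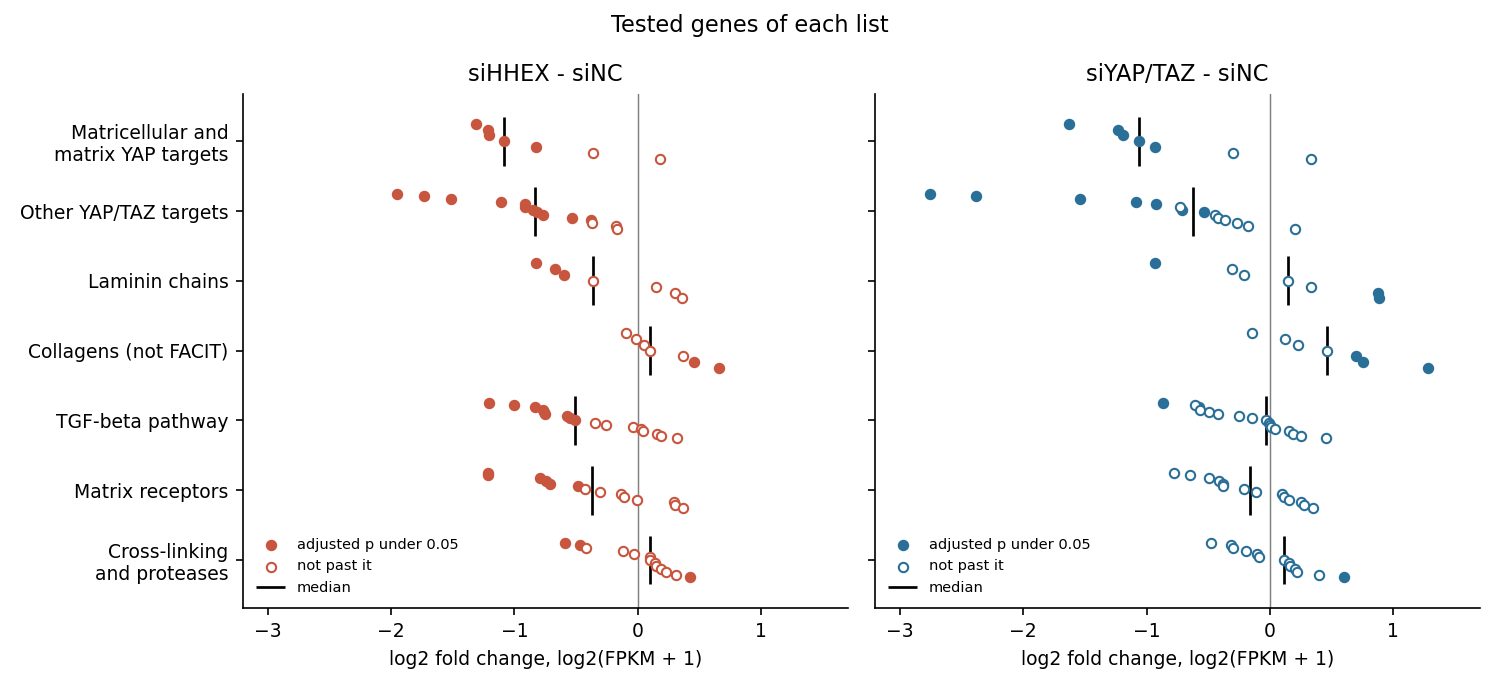
Log2 fold change from siNC of each tested gene of 7 lists, in siHHEX (left) and siYAP/TAZ (right); filled points have an adjusted p under 0.05 and the bar is the median of a list, and *LAMB3* and *LAMA3* stand in both the first and the third list. The matrix members and the other YAP/TAZ targets lie furthest to the left in both panels, with medians of -1.09 and -0.83 in siHHEX and -1.06 and -0.62 in siYAP/TAZ.

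The profiles of the members over the 8 libraries were compared, those of the 5 genes that fell first. Pearson's r of log2(FPKM + 1) was 0.976 between *CTGF* and *THBS1*, 0.936 between *CYR61* and *THBS1* and 0.676 for the least alike pair of the 5, *COL12A1* and *LAMB3*. *TGM2* and *LAMA3* were unlike them, with r between -0.10 and 0.29, and unlike each other, with r of -0.60. The values describe 8 libraries in 4 groups, the differences between groups included. Each of the 5 genes lay below both controls in every knockdown library. A high r between them is in part fixed by that choice and is a description only. Over all tested genes, the 2 profiles most like that of *CTGF* were *CTNNAL1* (r = 0.988) and *CRIM1* (r = 0.984), a transmembrane protein gene from the list of other YAP/TAZ targets. *CYR61* was nearest to *CSTF2* (0.972) and *AMOTL2* (0.969), *THBS1* to *DDX47* (0.982) and *FAM210A* (0.977), *COL12A1* to *EIF3J* (0.982) and *SOCS2* (0.976), and *LAMB3* to *C1orf174* (0.971) and *DUSP5* (0.969). Each of these 10 genes was below both controls in every siHHEX and siYAP/TAZ library. That is largely fixed by their choice for a high r with the 5 members, and it is a description only. Among all tested genes, 33.8% were below both controls in every siHHEX library and 24.8% in every siYAP/TAZ library. *LAMA3* was nearest to *VSIG10* (0.976) and *ATP23* (0.975), and *TGM2* to *LRFN1* (0.982) and *ARHGEF2* (0.966). *LRFN1* repeated the order of *TGM2*, at 11.6 FPKM in siNC, 13.2 in siHHEX, 8.73 in siYAP/TAZ and 12.9 in siTEAD1/2/3/4.

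Several measures moved along with these results. The level of *YAP1* differed between the siHHEX libraries, at 28.9%, 87.3% and 34.7% of the siNC mean in siHHEX 1, 2 and 3. *WWTR1* was at 75.7%, 90.6% and 127% of the siNC mean in the same libraries. In siHHEX 2, where *YAP1* was nearest to control, *CTGF* was at 9.59%, *CYR61* at 30.0%, *THBS1* at 32.4%, *COL12A1* at 51.8% and *LAMB3* at 40.7% of siNC, values at or below those of siHHEX 3 for *CTGF*, *CYR61* and *LAMB3* and the highest of the siHHEX libraries for *THBS1* and *COL12A1*. The libraries also differed by GC content and transcript length, which accounted for 46.2%, 16.3% and 59.9% of the variance across tested genes in siHHEX 1, 2 and 3, for 29.4% and 24.0% in siNC, for 25.8% and 19.3% in siYAP/TAZ and for 11.6% in siTEAD1/2/3/4, each library taken as its difference from the mean of all 8. At the GC content and length of *THBS1* this trend gave a siHHEX log2 fold change of -0.23, at those of *COL12A1* -0.19, at those of *LAMB3* 0.26 and at those of *CTGF* 0.11. With the trend taken off, the change in siHHEX on the log2 scale was -1.32 for *CTGF*, -1.38 for *CYR61*, -0.86 for *THBS1*, -1.02 for *COL12A1* and -1.09 for *LAMB3*, all with an adjusted p under 0.05.

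The cell line was checked against markers of cell type. All 6 epithelial markers were expressed, led by *KRT8* at 1591 and 1707 FPKM in siNC. Their levels summed to 3429 and 3575 FPKM in siNC, to between 3204 and 3735 FPKM in siHHEX, to 2091 and 2031 FPKM in siYAP/TAZ and to 2768 FPKM in siTEAD1/2/3/4. The siYAP/TAZ sum was lower mainly through *KRT8* and *KRT18* (log2 fold changes -0.88, adjusted p = 0.00227, and -1.22, adjusted p = 0.000861). In siHHEX *KRT18* and *EPCAM*, an epithelial adhesion molecule, were lower (-0.29, adjusted p = 0.0348, and -0.38, adjusted p = 0.0289) and *CLDN7*, a claudin, was higher (0.39, adjusted p = 0.0486). With the replicate block 0 of the 6 markers passed in siHHEX, with median scaling 0 were lower, and with GC content and length corrected for those that passed were *KRT18* (-0.68, adjusted p = 0.00453) and *KRT8* (-0.34, adjusted p = 0.0427), both lower. Of 10 fibroblast markers 8 stayed below 1 FPKM in every library, among them *COL1A2*, *COL3A1*, *DCN* and *LUM*, which were at most 0.0407 FPKM in siNC and reached 0.273, 0.283, 0.0825 and 0.0865 FPKM in siYAP/TAZ 2, and the summed level was 1.79 and 1.34 FPKM in siNC, 2.05 to 3.02 FPKM in siHHEX, 3.17 and 5.61 FPKM in siYAP/TAZ and 2.50 FPKM in siTEAD1/2/3/4. *ACTA2*, smooth muscle actin, was the fibroblast marker that passed, higher in siYAP/TAZ (log2 fold change 1.0, adjusted p = 0.0234). *ACTA2* and *COL1A1* were below 1 FPKM in siNC, so they entered the test only through knockdown libraries. The 5 endothelial markers summed to at most 0.221 FPKM in any library. The part of these shifts in the results for the matrix genes was not tested.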

How the data were processed

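Per the labels, total RNA of HCT-116 cells was extracted with Trizol. The authors deposited 1 FPKM value per gene and library, for 20030 rows with 20028 distinct names; the submitters' processing notes list Trimmomatic 0.36, HISAT2 2.0.5, Cufflinks 2.2.1 and HTSeq 0.9.1 without their roles, and the genome build is not given in the sources used here. DESeq, which the paper names, was not used, since the values are FPKM; the depth is unknown.

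Groups came from the labels. limma 3.58.1 in R 4.3.3 fitted log2(FPKM + 1) of the 8 libraries with 4 groups, a variance trend and Benjamini-Hochberg adjustment; 10677 genes passed the filter and 9353 did not. The single siTEAD1/2/3/4 library got no p. The fit was tested on simulated data. Results were recomputed with a pseudocount of 0.1, without the filter, from only the groups compared, with a block for the replicate number, with median scaling, with a correction for GC content and length (splines of 4 degrees of freedom, 10608 genes), with that correction and the block, and without each library of a replicated group. The ratio of mean FPKM and the alternatives for the other lists were added after seeing the data. Coordinates are GENCODE on GRCh38 and promoter windows RefSeq on GRCh38.p14. Python 3.11.15 with pandas 2.3.3 did the rest, and matplotlib 3.10.9 the figures.

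The members and lists were chosen with earlier results of these data known. Named genes are the 8 members, the 7 siRNA targets, the 2 genes most alike each member, and from each list the 3 largest changes with an adjusted p under 0.05 in each knockdown and the 2 highest in siNC; other genes named, such as *TGFB1*, *THBS3* and the genes listed as not tested or near 0, were chosen after their values were seen. A further gene that the rule covers is not reported here.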

Additional observations from a re-analysis of the deposited data

Results flagged for a closer look

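The members *TGM2* and *LAMA3* were picked out because siHHEX and siYAP/TAZ differed in a test of the difference itself, with all libraries of one knockdown above and all of the other below both siNC libraries. The share of all tested genes with this pattern was not counted. *TGM2* cleared the controls narrowly in siHHEX 1, at 1.86 FPKM against 1.83 FPKM in siNC 2. For *TGM2*, siHHEX minus siYAP/TAZ was 0.47 on the log2(FPKM + 1) scale (adjusted p = 0.0273 from limma), with group means of 1.97 ± 0.156 FPKM (SD, n = 3) and 1.15 ± 0.313 FPKM (SD, n = 2). For *LAMA3* the difference was -0.70 (adjusted p = 0.0113 from limma), with means of 0.731 ± 0.232 FPKM (SD, n = 3) and 1.81 ± 0.511 FPKM (SD, n = 2). Over the alternatives the adjusted p ranged from 0.0132 to 0.179 for *TGM2* and from 0.0133 to 0.0734 for *LAMA3*. No other tested member differed between these knockdowns at an adjusted p under 0.05. The groups of these data hold at most 3 libraries, too few to look for single outlying samples.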

How the results depend on the processing

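The depth of the libraries is unknown and each group holds at most 3, so a control carries much weight. In siHHEX 5 members were called, 4 without the filter (*LAMB3* was lost), and 1 to 5 when a library was left out; *CTGF* alone remained without either siNC library, when 19 or 27 of all tested genes passed, though the log2 fold changes of *CYR61*, *THBS1* and *COL12A1* then stayed between -1.07 and -1.36. In siYAP/TAZ 5 were called, 2 without the filter, and 0 to 5 when a library was left out: 2 without siNC 1, 0 without siNC 2 (15 of all genes passed) and 3 without siYAP/TAZ 2. The siYAP/TAZ log2 fold changes without siNC 2 were -1.20 for *CTGF*, -1.58 for *CYR61*, -1.04 for *THBS1*, -1.13 for *COL12A1* and -0.87 for *LAMB3*. With a pseudocount of 0.1, 3 members were past a fold of 2 in siTEAD1/2/3/4 in place of 1. In siHHEX against siYAP/TAZ 2 were called, 0 without the filter, and 0 when GC content and length were corrected for, with or without the block, 1 with the block, and 1 to 2 when a library was left out: *TGM2* lost its call without siHHEX 1, siHHEX 3 or siYAP/TAZ 2, and *LAMA3* without siYAP/TAZ 1. Over the other matrix and YAP target lists, 37 of 79 tested genes were called in siHHEX (3518 of all 10677), 13 of 169 without the filter (987 of all genes), 19 of 78 after the GC correction (716 of 10608), 13 of 78 with that correction and the block (186), and 2 to 41 when a library was left out (2 without either siNC library). In siYAP/TAZ 17 were called (884 of all genes), 2 without the filter (208), 30 with only the groups compared (1759), and 2 to 12 when a library was left out (2 without either siNC library, 3 without siYAP/TAZ 2). The cause of these shifts was not tested, beyond the smaller number of samples or the larger number of genes.

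Differences between siHHEX and siYAP/TAZ near 0 changed sign. *CTGF*, 0.03, was -0.0196 with the block, -0.0204 after the GC correction, -0.051 with both, and -0.0554 to 0.109 when a library was left out. *THBS1*, -0.03, was 0.0704 with median scaling, 0.34 after the GC correction, 0.33 with the block added, and -0.114 to 0.0546 without a library. *COL12A1*, -0.02, was 0.055 with the block, 0.14 with median scaling, 0.36 after the GC correction, 0.40 with both, and -0.202 to 0.0948 without a library. *LAMB3*, 0.11, was -0.10 with the block, -0.0506 after the GC correction, -0.21 with both, and -0.14 to 0.35 without a library. None of these passed the test. The deviations of same-numbered libraries from their group means had correlations of -0.0704 to 0.0215. No pairing by number was seen, but with 2 or 3 libraries in a group this check cannot exclude one. With the replicate block 2062 genes were called in siHHEX against 3518, 5 of them members. In siYAP/TAZ 1031 were called against 884, also with 5 members.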

Other observations

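Enzymes that modify or cut the matrix and other basement membrane genes were also looked up. Of 13 tested cross-linking enzymes, proteases and inhibitors, 2 were lower and 1 higher in siHHEX, and 0 were lower (1 at an unadjusted p under 0.05) and 1 higher in siYAP/TAZ by limma. Among all tested genes 16.9% were lower and 16% higher in siHHEX, and 2.13% and 6.15% in siYAP/TAZ. The 13 genes had median log2 fold changes of 0.10 and 0.11 (-0.07 and 0.01 with GC content and length corrected for). *PLOD2*, a lysyl hydroxylase that prepares collagen for cross-linking, was at 1.81, 2.15 and 1.95 FPKM in siHHEX against 3.61 and 3.35 FPKM in siNC (log2 fold change -0.59, adjusted p = 0.013), and at 4.65 and 3.68 FPKM in siYAP/TAZ. Corrected for GC content and length, its siHHEX log2 fold change was -0.14 (adjusted p = 0.566). *TIMP2*, an inhibitor of matrix metalloproteinases, was lower in siHHEX (-0.47, adjusted p = 0.0205), and *PLOD1* was higher (0.42, adjusted p = 0.0459), a call lost under the same correction (0.14, adjusted p = 0.495). *MMP14*, a membrane-bound protease that cleaves collagen, was higher in siYAP/TAZ, at 2.85 and 3.12 FPKM against 1.65 and 1.59 FPKM (log2 fold change 0.60, adjusted p = 0.0334).

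Among 6 tested basement membrane and hemidesmosome genes, *HSPG2*, the gene of perlecan, was higher in siHHEX (log2 fold change 0.48, adjusted p = 0.0441) and in siYAP/TAZ (0.72, adjusted p = 0.038). Under the GC and length correction neither call held (0.16, adjusted p = 0.638, and 0.48, adjusted p = 0.158). *DST*, a linker of hemidesmosomes to the cytoskeleton, was lower in siHHEX (-0.39, adjusted p = 0.0442). It was at 4.23 FPKM in both siYAP/TAZ libraries against 2.60 and 2.98 FPKM in siNC, a difference that did not pass (0.47, adjusted p = 0.0727), while its difference between the knockdowns was -0.86 (adjusted p = 0.00426). Under that correction *DST* was at -0.07 in siHHEX (adjusted p = 0.689), and its difference between the knockdowns was -0.28 (adjusted p = 0.128), so that both calls were lost.

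Some genes among the most abundant of their lists are not described above. *MYOF*, the gene of myoferlin among the other YAP/TAZ targets, was at 35.4 and 35.7 FPKM in siNC and was lower in siHHEX (-0.53, adjusted p = 0.0138), which was lost under the GC and length correction (adjusted p = 0.0781), and did not pass in siYAP/TAZ (-0.18, adjusted p = 0.421). *PLEC*, the gene of plectin, at 58.5 and 60.2 FPKM in siNC, did not pass (-0.31, adjusted p = 0.155 in siHHEX and -0.49, adjusted p = 0.113 in siYAP/TAZ), but passed as lower in both under that correction (adjusted p = 0.0191 and 0.0129). *CD151*, *ITGA3*, *TIMP1*, *LTBP3*, *COL6A2* and *COL1A1*, at siNC levels from 0.821 FPKM for *COL1A1* to 117 FPKM for *CD151*, passed in neither knockdown, with adjusted p-values of 0.066 for *COL6A2* in siHHEX and above. *FBLN5*, *TGM1*, *VWF* and *KDR* were at most 0.744 FPKM in siNC and were not tested.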
